A study of Homo sapiens with 6 samples.

Results

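The numbered zinc finger genes of chromosome 19 are the protein-coding genes on that chromosome, taken from RefSeq (GRCh38.p14, also called hg38), whose symbol is ZNF followed by digits and at most 1 letter. There were 246 such genes among 1410 protein-coding genes of the chromosome and among 19821 on chromosomes 1 to 22 and X. G-quadruplexes (G4s), structures of stacked guanine tetrads that form in G-rich DNA, were mapped by ChIP-seq (sequencing of immunoprecipitated chromatin) in the human osteosarcoma line U2OS. BG4, the antibody used, binds G4s. The cells had been treated with 1,6-hexanediol (HD), an alcohol that dissolves many biomolecular condensates, or left untreated (Ctrl), and chromatin of both was fixed with formaldehyde. The hexanediol dose and time were not given in the sources used here. There were 2 ChIP and 1 input libraries per condition. For each condition 1 peak list was analysed, with 2269 peaks in HD and 3507 in Ctrl, of which 156 and 197 lay on chromosome 19. A gene was called marked when a peak lay within 1 kb of either gene end. With 1 list per condition there is no spread between libraries, so nothing below was tested between conditions. All names of HD peaks carry the number of replicate 1, so that list may come from a single library. Peak lists hold no expression values, so the cell type was not checked against marker genes.

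Most numbered zinc finger genes of this chromosome encode C2H2 zinc finger proteins, in which tandem fingers read DNA sequence. Many of them carry a KRAB domain, which recruits the corepressor TRIM28 and, through it, the histone methyltransferase SETDB1, and are known for silencing transposable elements. They arose by repeated tandem duplication, so that related genes sit side by side in long clusters. ZNF91 and ZNF93, which silence families of retrotransposons, lie in the cluster nearest to the centromere, and the bodies of many such genes are known to carry the repressive mark H3K9me3.

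The promoter sequences below are windows that peaks covered in part, beside that of an unmarked gene. Each is the RefSeq window of GRCh38.p14 from 250 bases before to 50 after the annotated gene start, printed 5′ to 3′ on the strand of its gene. Capitals mark a G4 motif, defined as 4 or more runs of at least 3 G separated by 1 to 7 bases. A separating base may itself be G, so that 1 long run can count as several. Both strands were searched, so that a capital stretch rich in C carries the G runs on the other strand. The first 4 belong to genes marked in both lists, ZNF628 to the gene with the highest −log10 q of those marked in Ctrl alone, ZNF160 to its counterpart in HD, and ZNF91 is an unmarked gene of the largest span. The windows were chr19:55605397-55605696 (plus strand), chr19:55624517-55624816 (minus), chr19:56121246-56121545 (minus), chr19:58278705-58279004 (plus), chr19:55476367-55476666 (plus), chr19:53103373-53103672 (minus) and chr19:23395422-23395721 (minus).
ZNF865: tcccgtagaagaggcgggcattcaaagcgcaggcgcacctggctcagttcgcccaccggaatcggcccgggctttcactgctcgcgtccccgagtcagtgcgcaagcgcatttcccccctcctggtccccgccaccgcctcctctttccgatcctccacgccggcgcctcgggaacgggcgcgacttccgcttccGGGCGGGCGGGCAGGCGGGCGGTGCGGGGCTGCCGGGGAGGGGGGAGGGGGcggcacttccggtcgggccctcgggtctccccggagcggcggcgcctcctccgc
ZNF784: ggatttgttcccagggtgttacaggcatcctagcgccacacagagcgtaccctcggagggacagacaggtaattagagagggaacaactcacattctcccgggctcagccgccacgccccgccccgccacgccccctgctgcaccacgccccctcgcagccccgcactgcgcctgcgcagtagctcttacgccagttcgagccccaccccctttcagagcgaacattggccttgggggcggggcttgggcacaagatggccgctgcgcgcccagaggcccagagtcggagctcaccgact
ZNF787: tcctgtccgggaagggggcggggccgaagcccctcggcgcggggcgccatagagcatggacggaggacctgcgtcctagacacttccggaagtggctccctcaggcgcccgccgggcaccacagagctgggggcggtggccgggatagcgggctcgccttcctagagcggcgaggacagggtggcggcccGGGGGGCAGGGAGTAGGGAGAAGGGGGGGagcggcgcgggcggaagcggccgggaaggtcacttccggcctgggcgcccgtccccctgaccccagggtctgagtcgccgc
ZNF8: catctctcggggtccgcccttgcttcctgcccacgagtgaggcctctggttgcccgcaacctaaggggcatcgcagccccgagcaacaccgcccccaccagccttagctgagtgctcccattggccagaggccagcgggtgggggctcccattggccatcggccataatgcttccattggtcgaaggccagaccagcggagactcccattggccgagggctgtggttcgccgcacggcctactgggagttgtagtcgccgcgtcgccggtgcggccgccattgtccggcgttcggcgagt
ZNF628: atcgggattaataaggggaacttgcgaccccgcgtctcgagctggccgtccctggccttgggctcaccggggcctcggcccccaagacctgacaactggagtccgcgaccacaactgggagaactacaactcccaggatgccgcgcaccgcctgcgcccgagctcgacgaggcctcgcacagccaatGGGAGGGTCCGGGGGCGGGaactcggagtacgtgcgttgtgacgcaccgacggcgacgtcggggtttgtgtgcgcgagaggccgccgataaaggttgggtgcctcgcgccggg
ZNF160: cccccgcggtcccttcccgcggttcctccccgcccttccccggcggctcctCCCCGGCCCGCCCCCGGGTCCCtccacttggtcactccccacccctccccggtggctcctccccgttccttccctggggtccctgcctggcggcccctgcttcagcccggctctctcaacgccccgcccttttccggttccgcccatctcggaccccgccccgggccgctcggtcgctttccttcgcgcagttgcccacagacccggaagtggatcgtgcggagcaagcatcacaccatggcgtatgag
ZNF91: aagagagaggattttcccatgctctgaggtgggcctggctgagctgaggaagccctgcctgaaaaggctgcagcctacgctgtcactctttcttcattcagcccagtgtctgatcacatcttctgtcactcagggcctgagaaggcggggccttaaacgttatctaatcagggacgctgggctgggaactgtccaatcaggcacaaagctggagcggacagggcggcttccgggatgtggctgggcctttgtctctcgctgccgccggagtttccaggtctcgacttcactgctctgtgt

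The ZNF865 window had a GC content of 74.7% and a G-rich stretch of 51 bases that ended 4 bases before the gene start. The HD peak reached into that stretch and the Ctrl peak ended before it. The ZNF787 window had a GC content of 75% and a motif of 29 bases, also on the strand of its gene. ZNF784 and ZNF8 had peaks in both lists and no such motif in their windows, which had a GC content of 66.3% and 67%. The HD peaks covered 221 of the 300 bases at ZNF865, 203 at ZNF784, 276 at ZNF787 and 259 at ZNF8, and the Ctrl peaks covered 186, 221, 236 and 296 of them at the same genes. The Ctrl summits of ZNF784 and ZNF787 lay outside the printed windows. In ZNF160 the motif had its G runs on the strand opposite to the gene. The unmarked ZNF91 window had a GC content of 57.3%, 11 CpG dinucleotides against 40 in that of ZNF865, and no motif.

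Few of these zinc finger genes carried a G4 peak at an end, in either condition. In HD, 8 of 246 members were marked (3.25%, exact 95% binomial interval 1.41 to 6.31), against 108 of 1164 other coding genes of chromosome 19 (9.28%, 7.67 to 11.1) and 8.11% of all coding genes. In Ctrl, 13 members were marked (5.28%, 2.84 to 8.87), against 136 of the other coding genes of the chromosome (11.7%, 9.89 to 13.7) and 10.9% of all coding genes. The members' share was the lower in both lists, and the intervals of members and other genes did not overlap. They did overlap with a window of 500 bp, with 1 gene per peak and by promoter windows in both lists, and in Ctrl also with lists of equal length. With 1 gene per peak, 3.25% of members (1.41 to 6.31) stood against 6.79% of the other genes (5.41 to 8.39) in HD, and 4.88% (2.55 to 8.37) against 8.76% (7.20 to 10.5) in Ctrl. These intervals cover counting error alone and take genes as independent, which neighbours that share a peak or descend from a common copy are not. No test of the difference was made. The same symbol rule gave 263 genes on other chromosomes, of which 30 were marked in HD (11.4%, 7.83 to 15.9) and 42 in Ctrl (16.0%, 11.8 to 21.0). The difference between these genes and the members was not tested.

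Both lists marked 5 members (2.03%), where 6.19% of the other coding genes of the chromosome and 5.20% of all coding genes were marked in both. HD alone marked 3 members (1.22%), against 3.09% of the other genes of the chromosome and 2.92% of all coding genes. Ctrl alone marked 8 (3.25%), against 5.50% and 5.70%. The members marked in both lists were ZNF524, ZNF865, ZNF784, ZNF787 and ZNF8. ZNF653, ZNF576 and ZNF160 were marked in HD alone. ZNF146, ZNF527, ZNF473, ZNF845, ZNF628, ZNF471, ZNF837 and ZNF584 were marked in Ctrl alone. The Ctrl list is the longer, and when 2172 peaks were taken from each list by −log10 q, the Ctrl list marked 7 members and the HD list 8, with ZNF524 and ZNF784 in both. These are 2.85% and 3.25% of members, against 6.79% and 9.28% of the other coding genes of the chromosome. The share of those other genes marked in both shortened lists was not computed.

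By position, 232 of the 246 members fell into 10 clusters, a cluster being a run of at least 5 members with at most 500 kb between neighbours, and 14 lay outside them. Many of the marked members came from a single cluster, the 16 genes from ZNF628 to ZNF835 (chr19:55476617-56671757). It held 4 of the 8 members marked in HD (25% of its genes) and 6 of the 13 marked in Ctrl (37.5%). Its marked genes ZNF628, ZNF524, ZNF865 and ZNF784 lay together at its lower end, ZNF787 further on, and ZNF471, marked in Ctrl alone, towards its upper end. ZNF579, ZNF581, ZNF580, ZNF444, ZNF582, ZNF583, ZNF667, ZNF470, ZNF71 and ZNF835 had no peak at an end. Among the 26 other coding genes in this span, 1 was marked in HD and 2 in Ctrl. The cluster depends on the gap allowed, since at 250 kb the run from ZNF628 to ZNF580 stood alone with 7 members, 3 marked in HD (42.9%) and 4 in Ctrl (57.1%). At 1000 kb it was joined to the next cluster, ending at ZNF446, with 5 of 59 members marked in HD (8.47%) and 9 in Ctrl (15.3%).

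**Figure D1:**
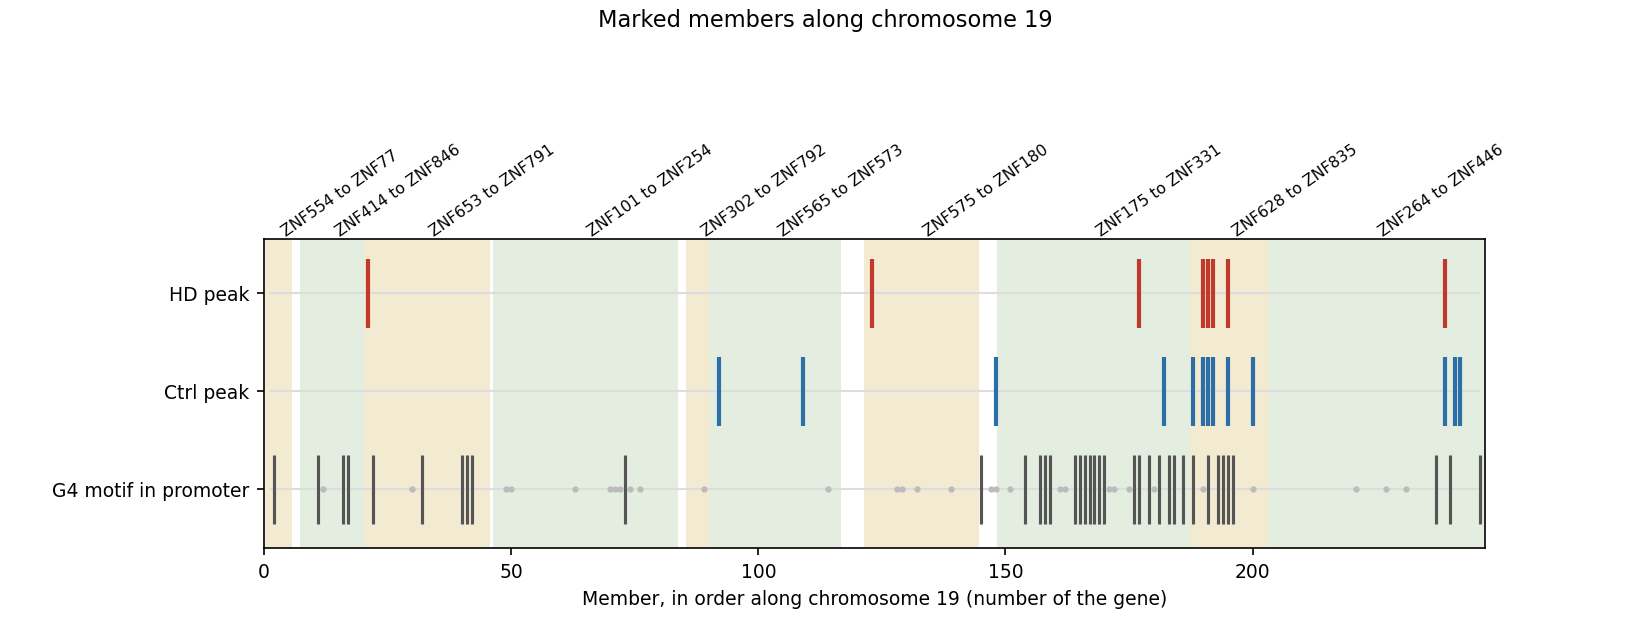
Each of the 246 members is placed by its number in order along chromosome 19, with clusters shaded and named by their first and last gene. Ticks show the genes with an HD peak (8) or a Ctrl peak (13) at an end and those with a G4 motif in the promoter window (38), and grey dots show the 30 genes without a promoter sequence. Peaks crowd in the cluster from ZNF628 to ZNF835, while motifs crowd in the neighbouring cluster from ZNF175 to ZNF331, where few peaks lie.

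The largest span, from ZNF101 to ZNF254 (chr19:19668153-24129968, 4.46 Mb), held 37 members and none was marked in either list. A count of 0 of 37 allows a share of up to 8.11% when 3 counts are taken as the limit, and up to 9.49% by the exact 95% interval, which holds the 9.28% of the other coding genes in HD. A single HD peak and no Ctrl peak lay anywhere in this span. That HD peak had 213 fragments at its summit but an input expectation of 111, a fold of 1.92, and lay within 1 kb of RPS16P10 and LOC124904662. The clusters from ZNF414 to ZNF846 (13 members), ZNF554 to ZNF77 (5 members) and ZNF302 to ZNF792 (5 members) also had no marked member in either list. Their exact 95% intervals reach up to 24.7%, 52.2% and 52.2%, above the shares of the other coding genes of the chromosome. Together these 4 clusters hold 60 members.

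The remaining 5 clusters each had between 1 and 3 marked members. The 43 genes from ZNF264 to ZNF446 (chr19:57191500-58489533) had 1 in HD, ZNF8, and 3 in Ctrl, ZNF8, ZNF837 and ZNF584. The 39 genes from ZNF175 to ZNF331 (chr19:51571283-53580269) had 1 in each list, ZNF160 in HD and ZNF845 in Ctrl. The 26 genes from ZNF565 to ZNF573 (chr19:36182060-37779586) had none in HD and 2 in Ctrl, ZNF146 and ZNF527. The 25 genes from ZNF653 to ZNF791 (chr19:11483429-12633834) had ZNF653 alone, and the 23 from ZNF575 to ZNF180 (chr19:43530835-44500522) had ZNF576 alone, both in HD. Among the 14 members outside clusters ZNF473 was marked in Ctrl and none in HD.

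**Figure D2:**
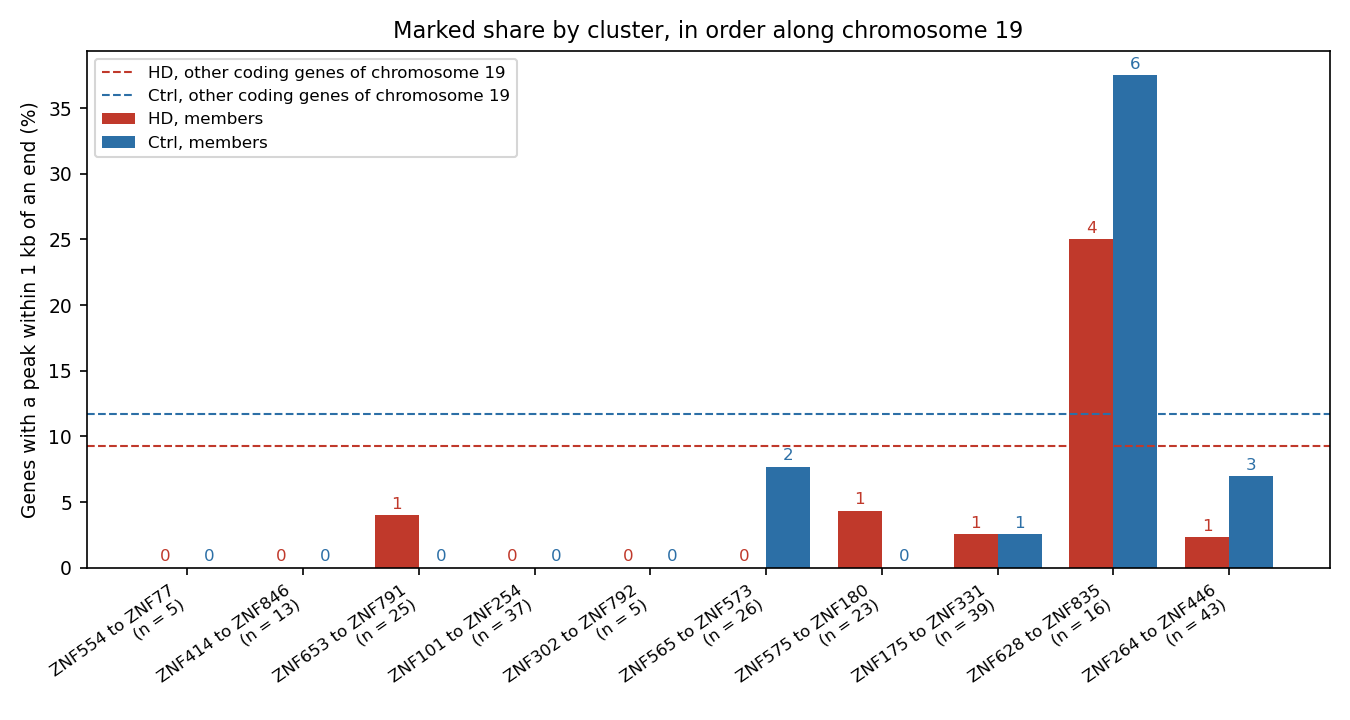
Bars give the percentage of each cluster's members with a peak within 1 kb of a gene end, in HD and in Ctrl, with the number of marked genes above each bar, and dashed lines give the share of the other coding genes of chromosome 19 (9.28% in HD and 11.7% in Ctrl). The cluster from ZNF628 to ZNF835 is the only one above both lines, at 25% and 37.5%.

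The cluster spans, members included, were together poorer in peaks than the rest of the chromosome. The cluster spans covered 14.4 Mb and held 19 of 156 HD peaks and 20 of 197 Ctrl peaks of the chromosome. That is 1.32 HD and 1.39 Ctrl peaks per Mb, where the rest of the chromosome, 44.2 Mb up to its last coding gene and including the centromere, had 3.10 and 4.01. Single spans differed. That from ZNF628 to ZNF835 was above the rest in both lists, with 4.18 HD and 7.53 Ctrl peaks per Mb. The span from ZNF302 to ZNF792 had 3.47 in HD, from 1 peak in 0.288 Mb, and none in Ctrl. No other span exceeded the rest. Of the 19 HD peaks in the spans, 8 lay at a member end, 4 at another coding gene end, 3 at a noncoding gene end alone, 1 inside ZNF444, 1 inside another coding gene and 2 elsewhere. Of the 20 Ctrl peaks, 13 lay at a member end, 3 at another coding gene end, 2 at a noncoding gene end alone, 1 inside ZNF444 and 1 elsewhere. The other coding genes within the spans were marked at 7 of 91 in HD (7.69%) and 4 of 91 in Ctrl (4.40%), against 9.41% and 12.3% of the 1073 outside the spans. The median distance from a member's nearer end to the nearest peak was 291 kb in HD and 327 kb in Ctrl, against 116 kb and 78.8 kb for the other coding genes. More than 100 kb separated 79.7% of members from any HD peak and 74.4% from any Ctrl peak, against 52.9% and 44.0% of the other genes.

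The median peak of the marked members had fewer fragments than the median of its list, and single peaks varied. Fragment numbers at the summits were recovered from the peak caller's fold and p-value, and the caller's genome-wide expectation was 5.51 fragments in HD and 3.74 in Ctrl. Each fragment number is therefore also given as a multiple of that expectation, which takes the depth of each list into account. The 8 HD peaks held 27 to 37 fragments (median 31.5, where all HD peaks had a median of 38), and the 14 Ctrl peaks held 18 to 31 (median 21, where all Ctrl peaks had 28). The authors' fold (over the caller's local background) was at a median of 4.28 in HD and 4.38 in Ctrl, close to the medians of the whole lists, 4.06 and 4.18. By fragments the median peak stood at the 26.1 percentile of the HD list and the 14.5 percentile of the Ctrl list, and by fold at 59.2 and 56.6. The lowest numbers at any called summit were 20 in HD and 15 in Ctrl, so an unmarked gene may hold signal below these.

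ZNF784 (gene ID 147808) had 35 fragments in HD (24.4 to 48.7) in a peak at chr19:55624501-55624719, and 22 in Ctrl (13.8 to 33.3) at chr19:55624397-55624737. The HD peak was 6.35 times and the Ctrl peak 5.89 times the genome-wide expectation of its list, a ratio of 1.08 (exact 95% interval 0.615 to 1.93). Within its own list the HD peak had a fold of 5.20 and a −log10 q of 8.39, and the Ctrl peak a fold of 4.79 and a −log10 q of 5.87, both as the authors' peak caller gave them. Both peaks lay across the gene start, with the HD summit 102 bp outside the gene and the Ctrl summit 63 bp inside it.

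ZNF8 (gene ID 7554), a KRAB zinc finger gene, had 36 fragments in HD (25.2 to 49.8) at chr19:58278699-58278963 and 21 in Ctrl (13.0 to 32.1) at chr19:58278667-58279000. Scaled to each list's expectation, the HD to Ctrl ratio was 1.16 (0.661 to 2.10). The HD peak had a fold of 5.41 and a −log10 q of 8.53, and the Ctrl peak a fold of 4.09 and a −log10 q of 4.24. Both summits lay outside the gene, 115 bp from its start in HD and 14 bp in Ctrl. The noncoding genes ZNF8-DT and ZNF8-ERVK3-1 also have an end within reach of these peaks.

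ZNF865 (gene ID 100507290) had 27 fragments in HD (17.8 to 39.3) at chr19:55605295-55605617 and 19 in Ctrl (11.4 to 29.7) at chr19:55605295-55605582, a scaled ratio of 0.964 (0.516 to 1.83). The fold was 3.99 in HD and 3.72 in Ctrl, with a −log10 q of 4.01 and 3.03. ZNF787 (gene ID 126208) had 28 fragments in HD (18.6 to 40.5) at chr19:56121270-56121591 and 19 in Ctrl (11.4 to 29.7) at chr19:56121310-56121664, a scaled ratio of 0.999 (0.539 to 1.89). Its fold was 3.75 in HD and 3.10 in Ctrl, and its −log10 q 3.87 in HD and 1.91 in Ctrl, among the lower values of the members. The summits of both genes lay outside the gene, 115 bp from its start in HD and 176 bp in Ctrl for ZNF865, and 218 bp and 307 bp for ZNF787.

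ZNF524, whose protein binds telomeric repeats, was the only member with more than 1 peak. It had 31 fragments in HD (21.1 to 44.0) at chr19:55599575-55599994, and in Ctrl 23 (14.6 to 34.5) at chr19:55599541-55599763 and 19 (11.4 to 29.7) at chr19:55599047-55599252. The overlapping pair gave a scaled ratio of 0.914 (0.516 to 1.64). The HD peak had a fold of 3.31 and a −log10 q of 3.26, the overlapping Ctrl peak a fold of 4.83 and a −log10 q of 6.27, and the other Ctrl peak a fold of 4.17 and a −log10 q of 3.82. Their summits lay 97 bp inside the gene in HD, and 22 bp inside and 432 bp outside it in Ctrl. These peaks also lie within 1 kb of an end of FIZ1, the neighbouring coding gene, so they cannot be given to ZNF524 alone. At the 5 members marked in both lists the scaled ratios of overlapping peaks ran from 0.914 to 1.16, and every interval held 1. These members were taken because each list had a peak there, which favours ratios near 1. Members marked in 1 list alone have no ratio, so the marked members as a whole are not described. The intervals are wide, reaching from 0.516 to 2.10, so differences of up to about that size were not detectable at this depth.

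**Figure D3:**
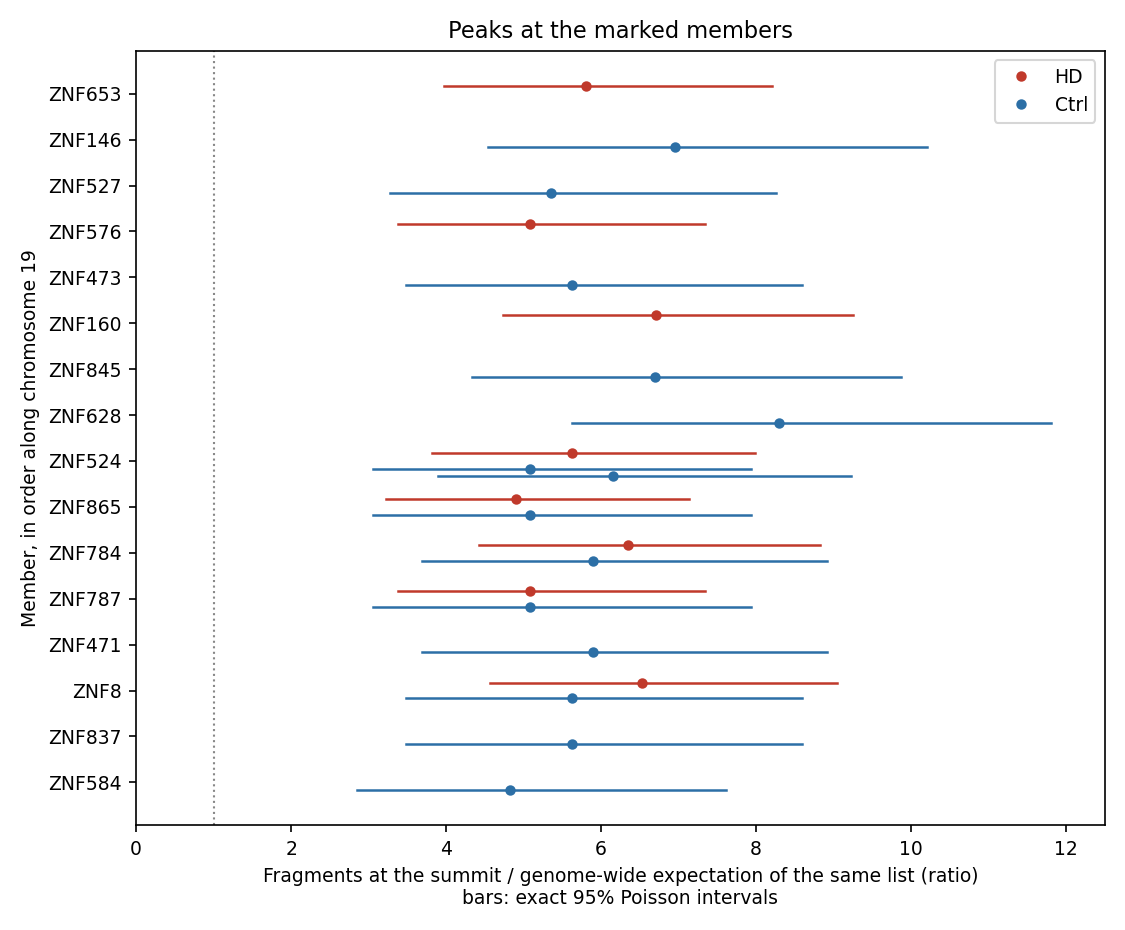
Points give the fragments at each summit of the 16 marked members as a multiple of the genome-wide expectation of the same list, HD above Ctrl, with exact 95% Poisson intervals. The dotted line marks the expectation itself. At the 5 members marked in both lists, a set chosen for a called peak in each, the HD and Ctrl intervals overlap. ZNF628 in Ctrl is the highest at 8.29.

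Among the members marked in HD alone, ZNF160, a KRAB zinc finger gene, had 37 fragments (26.1 to 51.0) across its start at chr19:53103410-53103671. Its fold was 4.57 and its −log10 q 7.1, with the summit 119 bp outside the gene. ZNF653, whose product represses the nuclear receptor SF-1, had 32 fragments (21.9 to 45.2) at chr19:11505121-11505355, with a fold of 4.77 and a −log10 q of 6.15. That summit lay 593 bp inside the gene, and the peak is within reach of its neighbour ECSIT. ZNF576 had 28 fragments (18.6 to 40.5) at chr19:43596126-43596382, with a fold of 3.50 and a −log10 q of 3.34, 101 bp outside its start and within reach of IRGQ. The nearest Ctrl peak was 230 kb from ZNF160, 612 kb from ZNF653 and 67.2 kb from ZNF576.

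Among the members marked in Ctrl alone, ZNF628 had 31 fragments (21.1 to 44.0) at chr19:55476460-55476674, with a fold of 5.94 and a −log10 q of 10.87. Both were the highest at any member, and the summit lay 71 bp outside the gene. ZNF146, a gene for a protein of fingers with no KRAB domain, had 26 fragments (17.0 to 38.1) at chr19:36214633-36215165, with a fold of 4.83 and a −log10 q of 7.30. Its summit lay 356 bp inside the gene and also inside ZNF565, and the peak overlapped 2 promoter windows of ZNF565. ZNF845 had 25 fragments (16.2 to 36.9) at chr19:53333502-53333779, with a fold of 4.83 and a −log10 q of 6.96, 92 bp outside its start. The nearest HD peak was 14.6 kb from ZNF628, 86.6 kb from ZNF146 and 230 kb from ZNF845.

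ZNF473, whose protein is a component of the U7 particle that processes histone messenger RNA, had 21 fragments in Ctrl (13.0 to 32.1) at chr19:50025321-50025626, with a fold of 4.58 and a −log10 q of 5.15. The peak lay 379 bp outside the gene, with its summit at 562 bp, and within reach of VRK3. ZNF473 lost it when each peak was given to the coding gene with the end nearest its summit. ZNF837 had the same fragment number, fold and −log10 q, at chr19:58381092-58381286, 106 bp outside its start. ZNF471, which is known to be silenced by promoter methylation in several tumours, had 22 fragments (13.8 to 33.3) at chr19:56507604-56507872, with a fold of 3.56 and a −log10 q of 3.45, 15 bp outside the gene. ZNF584 and ZNF527 had 18 and 20 fragments, with a −log10 q of 3.18 and 1.49.

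Where a strand was known, every marked member carried its peak at the start of the gene and none at its end, for 7 gene and peak pairs in HD and 10 in Ctrl. The strand was not in the sequence table for 1 HD and 4 Ctrl pairs. Summits lay a median of 115 bp (HD) and 107 bp (Ctrl) from the gene end concerned. Neither the end nor the distance was computed for other coding genes, so this placement is not shown to be particular to the members. Just inside the limit of 1 kb, the edge of the peak was 484 bp from ZNF653 in HD and 379 bp from ZNF473 in Ctrl. Just outside it, ZNF544 had peaks 1244 bp away in HD and 1212 bp away in Ctrl, and ZNF302 had 1 in HD 1529 bp away.

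Several members carried peaks at inner promoters that the rule on gene ends does not reach. ZNF444, whose product binds the promoter of an endothelial scavenger receptor gene, had 27 fragments in HD and 28 in Ctrl over a promoter window 8.73 kb inside the gene. ZNF574 had 29 fragments in HD and 31 in Ctrl over a window 7.69 kb inside. ZNF302 had 34 fragments in HD, and no Ctrl peak, over a window 1.70 kb inside, and that peak is also within reach of the coding gene SCGB2B2. These numbers are not scaled for depth, and the genome-wide expectation was the higher in HD. Counted by overlap with any promoter window, a definition chosen after seeing the data, 9 of 216 members were marked in HD (4.17%) and 12 in Ctrl (5.56%), against 6.91% and 10.0% of the other coding genes with such a window.

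Promoter windows were found for 216 of the 246 members, 969 of the 1164 other coding genes of chromosome 19 and 15812 of all coding genes. The window nearest to the annotated gene start was used. In 179 of the 216 members (82.9%) it lay within 10 bp of that start, and in the others further away. For the marked gene ZNF584 it lay 7091 bp away. The peaks of ZNF584 and ZNF653 did not overlap the windows of these genes. Zinc finger promoters were poorer in G4 motifs. The motif was present in 38 members (17.6%, 12.8 to 23.3), against 36.8% (33.8 to 40.0) of the other genes of the chromosome and 30.1% of all coding genes. Numbered zinc finger genes on other chromosomes had a share close to that of the members, 36 of 214 windows (16.8%, 12.1 to 22.5). Of all 263 such genes, 11.4% were marked in HD and 16.0% in Ctrl. Of all promoter windows in the table, 30.5% held the motif. The median GC content was 60% in members and 64% in the other genes. Among the 38 members with a motif 3 were marked in HD (7.89%) and 3 in Ctrl (7.89%), and among the 178 without one 4 in HD (2.25%) and 7 in Ctrl (3.93%). Among the other genes of the chromosome these shares were 8.68% and 13.7% with the motif and 9.97% and 11.6% without it. The marked members had a GC content with a median of 66.3% (range 59 to 75, 13 genes) against 59.3% in unmarked members (39 to 78.3, 203 genes). Gene length had a median of 22.2 kb in marked and 23.5 kb in unmarked members.

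Promoter GC content varied together with the marks, and the members' shares are therefore given by GC band. From 50 to under 60% GC, 0 of 101 members were marked in HD and 1 in Ctrl (0.990%), against 16 of 234 other genes in each list (6.84%). From 60 to under 70%, 4 of 95 members were marked in HD (4.21%, 1.16 to 10.4) and 7 in Ctrl (7.37%, 3.01 to 14.6), against 12.3% and 16.0% of 424 other genes. At 70% and over, 3 of 14 members were marked in HD (21.4%) and 2 in Ctrl (14.3%), against 9.58% and 14.2% of 240 other genes, with members' intervals of 4.66 to 50.8 and 1.78 to 42.8. Below 50% there were 6 members, none of them marked. Other properties of these promoters were not matched, and no test was made.

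**Figure D4:**
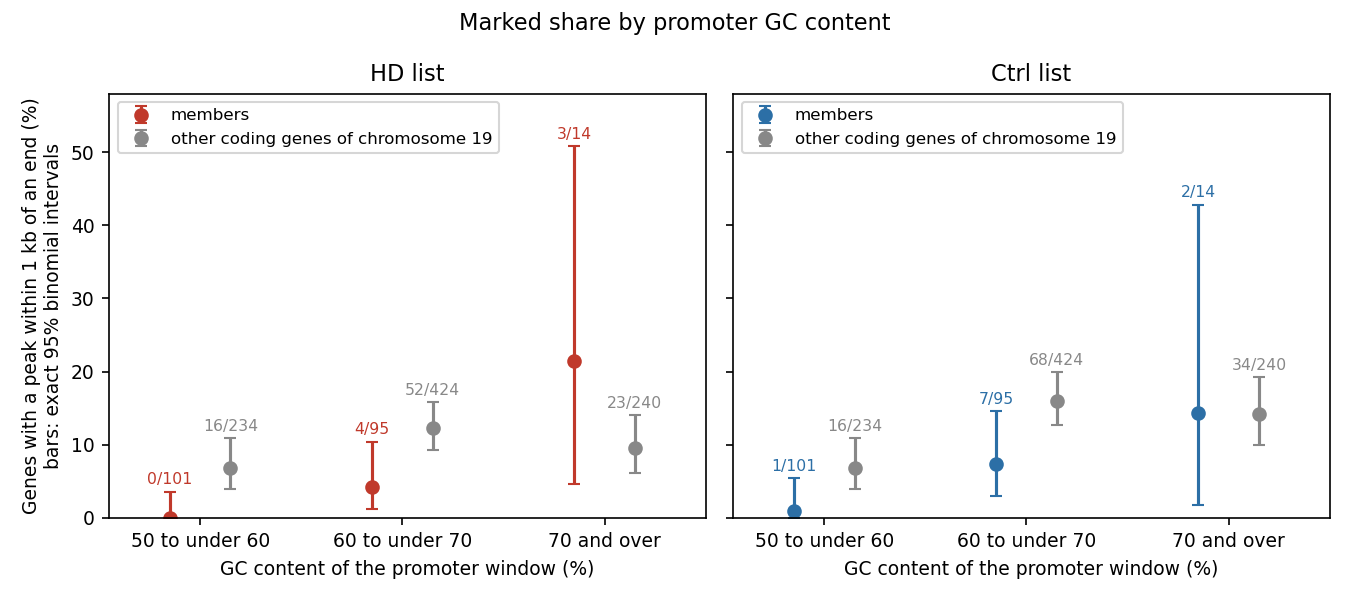
Points give the percentage of genes with a peak within 1 kb of an end, by GC content of the promoter window, for the members (coloured) and the other coding genes of chromosome 19 (grey), in the HD list and the Ctrl list. Bars are exact 95% binomial intervals and the labels give marked over all genes. In the band from 60 to under 70% the members are at 4.21% in HD and 7.37% in Ctrl, below the other genes at 12.3% and 16.0%.

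The clusters differed in their promoters. GC content was highest in the cluster from ZNF628 to ZNF835, with a median of 68.2%, and 6 of its 14 windows held a motif. The unmarked cluster from ZNF101 to ZNF254 had a median of 56% and a motif in 1 of 29 windows, with a median of 10 CpG dinucleotides per window against 29.5 in the cluster from ZNF628 to ZNF835. That motif, at ZNF492, has 3 separate G runs and was found because its longest run counted as more than 1. None of 25 windows from ZNF565 to ZNF573 and none of 19 from ZNF575 to ZNF180 held a motif, though each of these clusters had marked genes. The cluster from ZNF175 to ZNF331 had the highest share of motifs, 18 of 32 windows (56.2%, 37.7 to 73.6), a median GC content of 62.7% and 1 marked gene in each list. ZNF160 was the only gene of those 18 that was marked, in HD, and none was marked in Ctrl.

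**Figure D5:**
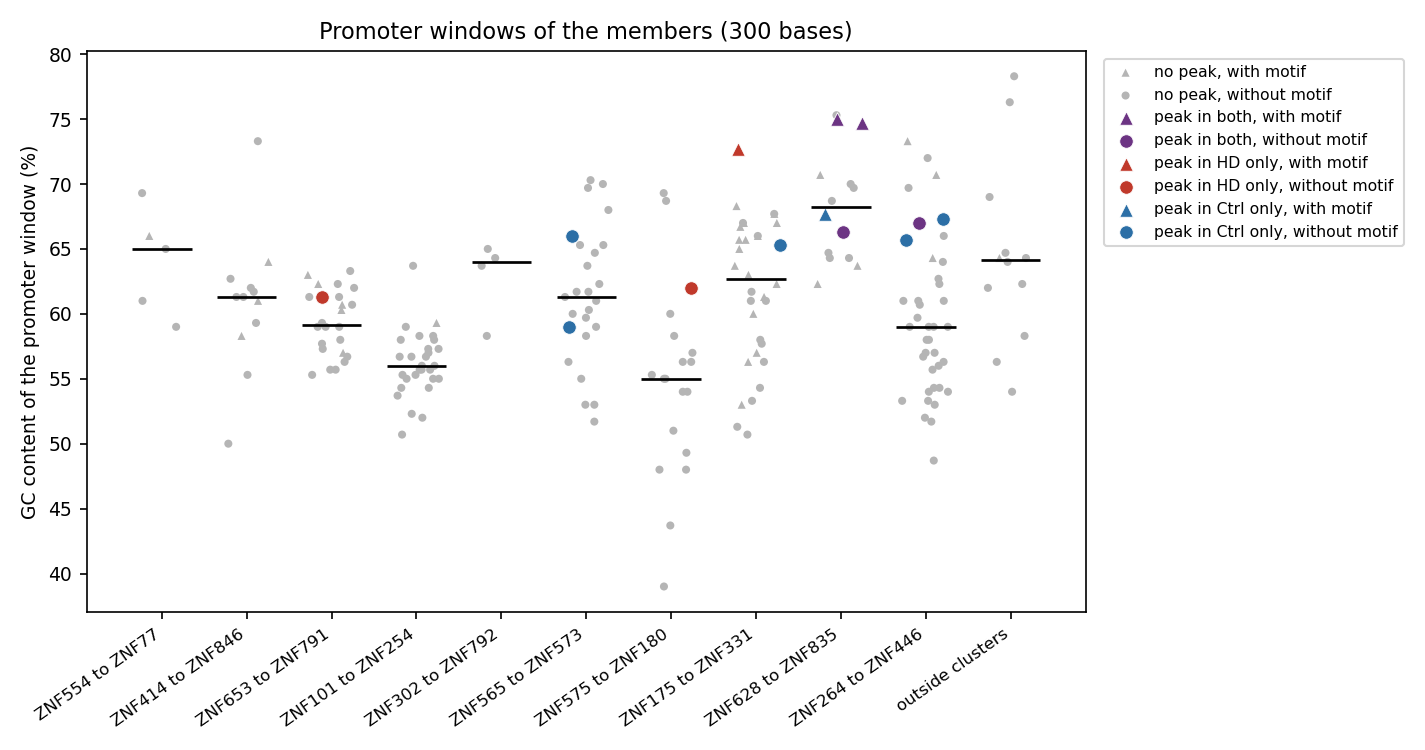
Points give the GC content of each member's promoter window by cluster, triangles where the window holds a G4 motif, coloured where the gene is marked, with the median of each cluster as a bar. The cluster from ZNF628 to ZNF835 has the highest median (68.2%) and, among the genes plotted, 3 marked in both lists. ZNF524, also of that cluster and marked in both lists, has no promoter window and is not plotted. The cluster from ZNF175 to ZNF331 has many motifs and 2 marked genes.

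The motifs of the cluster from ZNF175 to ZNF331 shared their strand. They ran over 18 to 44 bases with 4 to 7 G runs, and 28 different sequences were found among 29 stretches. All 29 motif stretches in its 18 windows had their G runs on the strand opposite to the gene, whichever way the gene ran. In the cluster from ZNF653 to ZNF791, all 5 windows with a motif had it on the strand of the gene. In the cluster from ZNF628 to ZNF835, 5 of 6 had it on the strand of the gene. Fewer windows held a motif in the clusters from ZNF414 to ZNF846 (3), ZNF264 to ZNF446 (3) and ZNF554 to ZNF77 (1). All of these had it on the opposite strand, and the 1 window from ZNF101 to ZNF254 had it on the strand of the gene. Among the other coding genes of chromosome 19 with a motif, 44.8% had it on the strand of the gene alone, 44.3% on the opposite strand alone and 10.9% on both. Neighbouring genes arose by duplication, so their motifs are not independent cases. Examples, picked to show the closest matches among the first 4, are shown 5′ to 3′ on the G-rich strand, with runs of at least 3 G in capitals, first from ZNF808, ZNF701, ZNF83, ZNF813 and ZNF160 of the cluster from ZNF175 to ZNF331, then from ZNF628 and ZNF787.
ZNF808: GGGcGGGGccGGGGcGGGGccGGGGcGGG
ZNF701: GGGcGGGGccGGGGcGGG
ZNF83: GGGcGGGGccGGGGcGGG
ZNF813: GGGcGGGGccGGGGtGGG
ZNF160: GGGacccGGGGGcGGGccGGGG
ZNF628: GGGaGGGtccGGGGGcGGG
ZNF787: GGGGGGcaGGGagtaGGGagaaGGGGGGG

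ZNF701 and ZNF83 carried the same 18 bases, on chr19:52570144-52570161 and chr19:52690612-52690629, and neither had a peak. The ZNF160 motif lay at chr19:53103600-53103621, within the HD peak of that gene. The ZNF628 motif lay at chr19:55476554-55476572, within its Ctrl peak, and the ZNF787 motif at chr19:56121327-56121355, within the HD peak and the Ctrl peak. A motif match is a description of letters and not a sign that a G4 forms.

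Other zinc finger genes of the chromosome and a list of KRAB corepressor and heterochromatin genes were counted in the same way. Of 20 other zinc finger genes of chromosome 19 (named ZFP, ZSCAN or ZBTB with a number, with ZIK1, ZIM2, ZIM3, PEG3 and ZFR2), 3 were marked in each list (15%, exact 95% interval 3.21 to 37.9), against 9.28% of the other coding genes of the chromosome in HD and 11.7% in Ctrl. They were ZBTB32, PEG3 and ZIM2. PEG3 and ZIM2 are imprinted genes that share a start, so their marks are not separate cases. Of 28 genes for corepressors of KRAB zinc finger proteins or for heterochromatin proteins, 3 were marked in HD (10.7%) and 3 in Ctrl (10.7%), against 8.11% and 10.9% of all coding genes. HDAC1, a histone deacetylase, and SUV39H2, a methyltransferase for H3K9, were marked in both lists. MTA2, a subunit of the NuRD complex, was marked in HD alone and MORC2, an ATPase that acts with the HUSH complex, in Ctrl alone. TRIM28, itself on chromosome 19, and SETDB1 were unmarked in both lists.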

How the data were processed

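U2OS chromatin from HD-treated and untreated cells was analysed as 1 peak list for each condition, tied by the labels to its pair of ChIP libraries. Input libraries had no file used here. Bowtie2 2.5.0, SAMtools, FastQC 0.11.9, MACS2 2.2.7.1 and hg38 are named, per the submitters' processing notes, with settings not given in the sources used here. Each deposited list gives peak positions, a peak score, a fold enrichment (a ratio over the caller's local background), and the deposited −log10 p and −log10 q, with q-values down to a −log10 q of 1.30. Summit and peak positions are given by the authors on hg38.

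Fragment numbers were recovered from fold and −log10 p. The fold is (pileup + 1) / (expectation + 1), p is the upper Poisson tail, and the pileup was taken as whole fragments times a scale (0.715 in HD, 0.927 in Ctrl). A whole number matched −log10 p within 0.01 for 2262 of 2269 HD and 3497 of 3507 Ctrl peaks, with more than 1 candidate for 4.10% and 4.82%. The step was tested on simulated data. Intervals cover counting error only, because reads of 1 amplified molecule are not independent.

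Genes came from RefSeq (GRCh38.p14), with scaffolds left out by the order of the table. Promoter windows matched 216 of 246 members, and overlapping windows on opposite strands agreed in all 68 cases. The members and lists were chosen with earlier results of these data known. The rule for named genes was that every marked member is named, with full values for those marked in both lists and for up to 6 with the highest −log10 q among those marked in HD alone and, separately, among those marked in Ctrl alone. No test was run, since 1 list per condition gives no replicate error. Alternatives were windows of 500 bp and 2 kb, the summit in place of the peak, −log10 q of at least 3, equal list lengths, 1 gene per peak, promoter windows, other cluster gaps and longer motif loops. SciPy 1.17.1 and pandas 2.3.3 were used.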

Additional observations from a re-analysis of the deposited data

How the results depend on the processing

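No paired analysis was possible because each condition has 1 peak list, with no value per library, and no replicate could be left out. Of 66 alternatives, 51 left the value within its interval or, for counts, within 1.5 times. The members' share stayed below that of the other coding genes of chromosome 19 in each list under the 7 alternatives run, but the intervals overlapped under 3 of them in HD and 4 in Ctrl. With 2172 peaks from each list, 2 members were marked in both lists, 6 in HD alone and 5 in Ctrl alone, and the Ctrl share of the other genes was 6.79%. The other genes were not split between the lists at that length. The HD share of the other genes was 7.39% with a window of 500 bp, 6.79% with 1 gene per peak (Ctrl 8.76%) and 6.91% by promoter window overlap. The cluster with the most marked genes held 7 members at a gap of 250 kb and 59 at 1000 kb, with 5 and 9 of those marked in HD and Ctrl. The median rank of the members' peaks by the authors' fold was 59.2 in HD and 56.6 in Ctrl, against 26.1 and 14.5 by fragments. With loops of up to 12 bases the motif was in 33.3% of members and 56.0% of other genes, and in any window of the gene in 43.1% of the other genes. The limits are the lowest fragment numbers called, 20 in HD and 15 in Ctrl, and the small number of marked genes, 8 and 13. The lists hold no values where no peak was called, so weaker signal could not be seen.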
